A study of Caenorhabditis elegans with 2 samples.

Results

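Molecular chaperones of the heat shock, DnaJ and chaperonin families were examined for regions bound by the nuclear hormone receptor NHR-11 in whole L3 larvae of Caenorhabditis elegans. Members were all protein-coding genes of the WBcel235 annotation whose symbol begins with hsp-, dnj- or cct- followed by a digit. There were 59 of them among 19973 protein-coding genes, namely 22 hsp-, 29 dnj- and 8 cct- genes. Symbols hsp-16.1 and hsp-16.48 each name 2 gene records, and each record was counted. A member was said to carry a region when the region's summit fell in its gene start window, which reached 1000 bases upstream and 500 bases downstream of the annotated 5′ end.

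The binding data came from chromatin immunoprecipitation followed by sequencing (ChIP-seq) in 2 biological replicates of 1 group. The worms were of strain OP305, mutant for unc-119(ed3) and carrying the array wgIs305, and both sexes were mixed. The labels name eGFP-nhr-11 as the target and nhr-11 as the antibody, so which epitope was recognised is not settled, and they do not give the promoter that drives the tagged gene. No second condition, such as a heat shock, was described. The analysis used 4 lists on the ce11 build, a candidate list of 30000 regions for each replicate, one for both replicates pooled, and a reproducible list of 1030 regions that passed the irreproducible discovery rate (IDR) procedure, which compares ranks between replicates. The pooled candidate list is labelled as peaks and background given to that procedure, so a candidate region alone does not show binding. The reproducible regions were the 1030 strongest of the pooled list, with peak signal values, as assigned by the authors, from 54.9 to 899. The scale of these values is not given in the sources used here and differs between lists, so ranks were compared across lists (1 is strongest). The lists hold no read counts, the depth is therefore unknown, and with positions only the labelled stage could not be checked against marker genes.

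Chaperones bind unfolded or newly made proteins and help them to fold. HSP70 proteins do so in cycles of ATP hydrolysis that DnaJ co-chaperones (HSP40 proteins) start and that nucleotide exchange factors such as HSP110 complete, and the ring-shaped chaperonin CCT folds actin and tubulin in the cytosol. Many of these genes are active in unstressed worms, whereas the hsp-16 genes and hsp-70 are nearly silent until heat activates the transcription factor HSF-1, which binds arrays of alternating GAA and TTC units in their promoters. The gene hsp-4 is likewise induced, by unfolded proteins in the endoplasmic reticulum. Genes were therefore divided, from general knowledge of the worm genes, into 16 constitutive and 8 stress-induced members. The label constitutive means activity in unstressed worms, and whether stress raises those genes further was not examined. The mitochondrial genes hsp-6 and hsp-60, which have both basal and stress-induced expression, were kept apart. So were 33 unclassified members, the dnj- genes among them.

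Of the 59 members, 10 (16.9%) carried a reproducible region, against 3.30% of all protein-coding genes. They were hsp-1, hsp-3, hsp-60, hsp-110, cct-1, cct-7, dnj-9, dnj-12, dnj-13 and dnj-14, each with a region distinct from those of the other members. For only 3 of the 10, hsp-1, hsp-3 and dnj-9, did the summit lie in no other gene's start window. The remaining summits also lay in the start window of a neighbouring gene. Constitutive genes accounted for 5 of the 10, the DnaJ family for 4 and hsp-60 for the remaining one. None of the 8 stress-induced members carried one, a count that so few genes do not set apart from the 3.30%. All these shares describe genes of a single group of samples, no test was made on them, and other genes were not matched to the members for expression level.

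DNA around the summit is shown for 6 of the 10 members with a reproducible region, picked to cover the families and not by strength alone, beside hsp-90 and the hsp-16 genes discussed further on, since the sequences differ in their heat shock elements; the pairs of hsp-60 lie outside its printed stretch. Each is on ce11, read 5′ to 3′ on the strand of the named gene, and taken from within 75 bases of the summit without exons of protein-coding genes. Capitals mark GAANNTTC and TTCNNGAA, the pairs of inverted units that make up a heat shock element, and 5 shorter words on either strand. These are the GA repeat GAGAGA, the word AGACGC, the word ACGCAG, the GC repeat GCGCGC and the E-box CACGTG. The words AGACGC and ACGCAG overlap where they form AGACGCAG. The positions are chrIV:17278490-17278639 for hsp-1, chrII:8185131-8185280 for cct-1, chrIII:8447084-8447233 for hsp-110, chrX:6092125-6092264 for hsp-3, chrIII:1619071-1619220 for hsp-60 and chrII:11545418-11545567 for dnj-13.
hsp-1: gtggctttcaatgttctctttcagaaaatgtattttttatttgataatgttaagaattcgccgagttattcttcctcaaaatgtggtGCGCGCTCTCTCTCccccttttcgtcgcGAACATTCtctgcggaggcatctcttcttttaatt
cct-1: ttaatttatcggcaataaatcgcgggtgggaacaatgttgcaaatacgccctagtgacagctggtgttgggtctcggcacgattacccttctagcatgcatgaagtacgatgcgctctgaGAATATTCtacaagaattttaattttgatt
hsp-110: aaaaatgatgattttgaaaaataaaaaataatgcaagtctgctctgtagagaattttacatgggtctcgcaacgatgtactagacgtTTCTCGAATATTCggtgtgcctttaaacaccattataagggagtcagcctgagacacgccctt
hsp-3: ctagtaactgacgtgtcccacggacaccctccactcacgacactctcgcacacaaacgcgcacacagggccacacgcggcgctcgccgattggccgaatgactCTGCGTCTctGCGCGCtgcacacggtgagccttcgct
hsp-60: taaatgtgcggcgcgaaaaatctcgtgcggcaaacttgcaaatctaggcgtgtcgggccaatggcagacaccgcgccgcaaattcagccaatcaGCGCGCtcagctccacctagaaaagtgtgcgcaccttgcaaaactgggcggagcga
dnj-13: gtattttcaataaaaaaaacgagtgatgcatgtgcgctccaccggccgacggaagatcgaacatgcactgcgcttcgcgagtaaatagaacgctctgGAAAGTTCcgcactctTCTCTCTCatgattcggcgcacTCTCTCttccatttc

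Among the HSP70 genes, hsp-1, which encodes the constitutive cytosolic HSP70, had the strongest region of any member. Its pooled signal of 314 ranked 16, and the overlapping replicate regions ranked 20 in replicate 1 (signal 148) and 13 in replicate 2 (signal 176). The region spanned chrIV:17278387-17278742, with its summit in intergenic DNA 394 bases upstream of the gene and within no other gene start window. Only 0.0451% of protein-coding genes had a region at or above this rank. The sequence above holds a run of alternating G and C followed by TCTCTC, and 1 heat shock pair 44 bases from the summit.

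The gene hsp-3, which encodes an HSP70 of the endoplasmic reticulum (BiP), had its summit 66 bases upstream of the 5′ end, in the region chrX:6092012-6092367, shared with no other gene. The pooled signal was 135 and ranked 127, with ranks of 202 in replicate 1 and 91 in replicate 2. Its surroundings were rich in G and C (58% over 300 bases) and held no heat shock pair. Its stress-induced relative hsp-4, which encodes the other BiP, had no summit in its window in any of the 3 candidate lists, although it gained a pooled candidate region when every transcript's 5′ end, any overlapping base or a window of 2000 bases to each side was counted. The nearest reproducible summit lay 25423 bases away. The mitochondrial hsp-6 and the heat-induced hsp-70 likewise had no candidate region in their windows in any list.

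The exchange factor gene hsp-110 carried a region at chrIII:8446981-8447336 with a pooled signal of 167, ranking 73, 80 in replicate 1 and 61 in replicate 2. Its summit lay 250 bases upstream of hsp-110 and 194 bases from the start of rpn-3, a gene of the proteasome's regulatory particle that is transcribed the other way. In the 300 bases around it, 4 heat shock pairs were found, with pairs that share a unit counted separately. The nearest was 16 bases from the summit. For hsp-60, the mitochondrial chaperonin, the region at chrIII:1618968-1619323 had a signal of 119 and ranked 173, with ranks of 138 and 327 in replicates 1 and 2. That summit was 596 bases upstream of hsp-60 but 217 bases from the divergent Y22D7AL.10, and a narrower window of 500 bases upstream and downstream no longer included hsp-60.

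The HSP90 genes showed how far the count rests on the annotated 5′ end. In its window, hsp-90 (formerly daf-21), the gene of cytosolic HSP90, had only a weak candidate region, with a signal of 24.4 and a rank of 15865. A reproducible region with a signal of 174, stronger than that of cct-1, lay 866 bases downstream of the 5′ end at chrV:14685606-14685961, in an intron of the longer of its 2 annotated transcripts. The same summit was 376 bases upstream of the other annotated 5′ end, at position 14686160, and it was nearest to the start of C47E8.4, 299 bases away. It ranked 66 in the pooled list, 85 in replicate 1 and 51 in replicate 2. Counting the 5′ end of every annotated transcript added this gene, and no other member, to the 10. The sequence around that summit, chrV:14685709-14685858, is shown because it holds a pair of each kind.
hsp-90: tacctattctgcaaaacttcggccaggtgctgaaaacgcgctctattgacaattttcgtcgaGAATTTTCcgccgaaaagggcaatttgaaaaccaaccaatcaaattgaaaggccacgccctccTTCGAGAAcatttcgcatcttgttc
The mitochondrial HSP90 gene hsp-75 (TRAP1 in mammals) had no candidate region in its window in any list.

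Of the 8 genes of the cytosolic chaperonin, 2 (25%) carried a reproducible region, against 3.30% of all protein-coding genes. The cct-1 region, chrII:8185028-8185383, had a signal of 169 and ranked 72, 73 in replicate 1 and 80 in replicate 2. That of cct-7, chrV:1871761-1872116, had a signal of 142 and ranked 109, 104 in replicate 1 and 125 in replicate 2. Both summits were nearer to a divergent neighbour, 183 bases from mig-5 (a Dishevelled protein of Wnt signalling) for cct-1 and 132 bases from T10B5.4 for cct-7, so neither gene remained when each region was given to its nearest gene alone.

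The other subunits of the ring carried no reproducible region. Candidate regions below the reproducible list were present at cct-8, cct-6, cct-5 and cct-4, with pooled signals of 47.1, 42.4, 35.4 and 32.7 and ranks of 1474, 2011, 3914 and 5356. Replicates placed them differently, cct-8 at 7063 in replicate 1 and 1107 in replicate 2, and cct-6 at 1335 and 6490. All 4 lay upstream, between 292 and 525 bases from the gene, and were nearer to a neighbour. There was no candidate region for cct-3 in any list, and for cct-2 only in replicate 2, at rank 21843. Within cct-5, a reproducible region with a signal of 75.6 had its summit in an intron 3517 bases downstream of the 5′ end, outside the window.

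**Figure D1:**
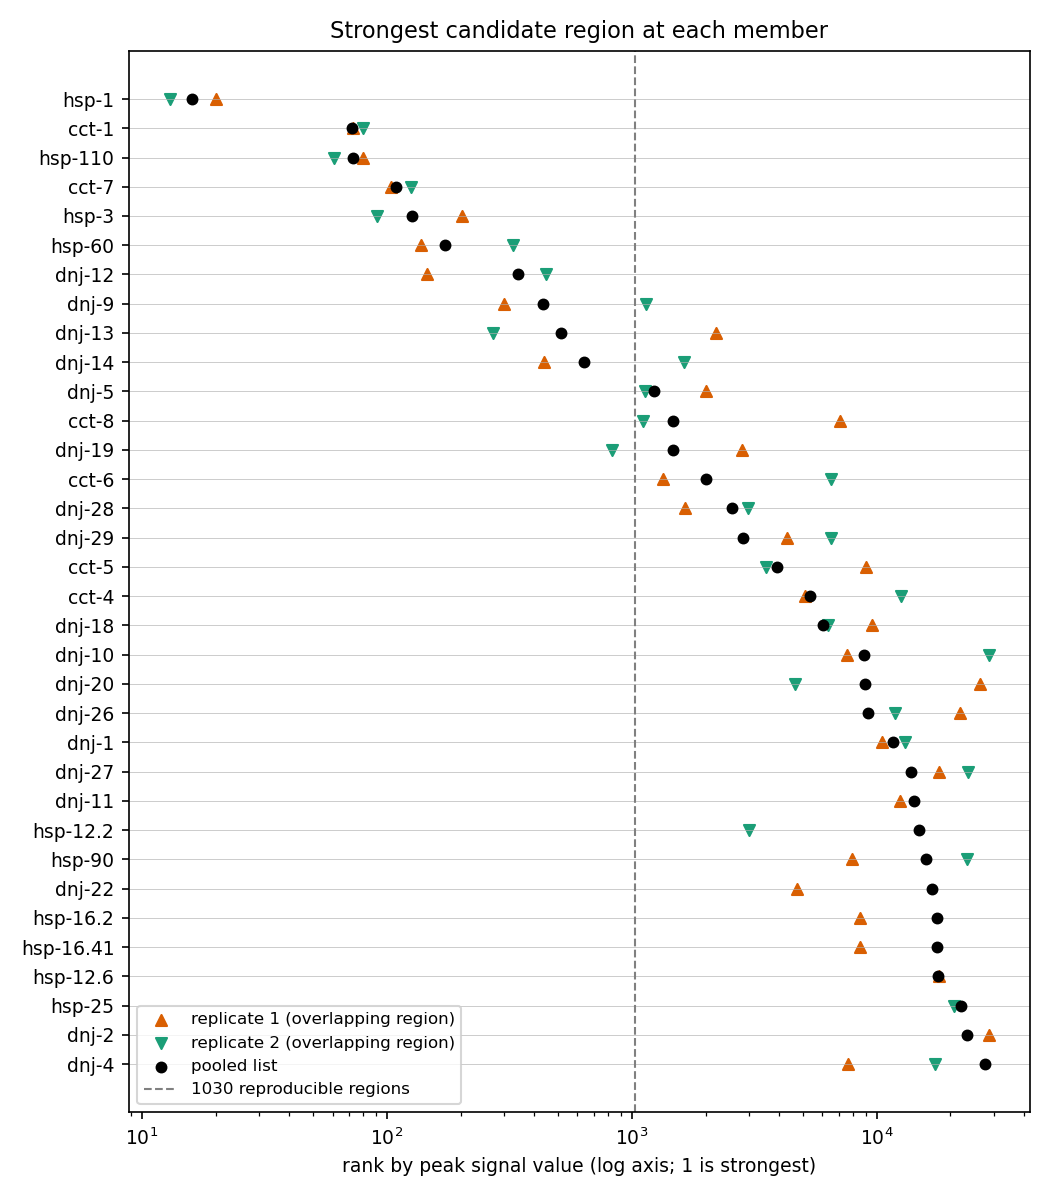
Rank by peak signal value (log axis) of the strongest pooled region in the window of each of the 34 members that had one (black), with the best ranked overlapping region of replicate 1 (orange) and replicate 2 (green). The dashed line marks the 1030 reproducible regions, and the 7 members from hsp-1 to dnj-12 lie left of it in every list, while dnj-9, dnj-13 and dnj-14 cross it in 1 replicate.

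DnaJ genes carried a reproducible region in 4 of 29 cases (13.8%), against 3.30% of all protein-coding genes. All 4 regions were weaker than the reproducible regions in the windows of the HSP and chaperonin genes above. The strongest was dnj-12, a class A DnaJ of the cytosol, with a signal of 87.9, a pooled rank of 343 and ranks of 146 and 445 in replicates 1 and 2, 78 bases upstream of its 5′ end and in a window shared with the metaxin gene mtx-1. It was the only one of the 4 among the 1030 strongest regions of both replicates. The region of dnj-9 had a signal of 78.7 and ranked 301 in replicate 1 but 1141 in replicate 2. For dnj-13, a class B DnaJ related to mammalian DNAJB1, the signal was 73.8, and the ranks were 2205 in replicate 1 and 270 in replicate 2. For dnj-14, which encodes the cysteine string protein of synaptic vesicles, it was 68.4, and the ranks were 436 and 1638. The replicates thus ordered these last 3 genes differently, dnj-13 being strong in replicate 2 and the other two in replicate 1. Summits of dnj-13 and dnj-14 fell in exons of the noncoding genes F54D5.22 and DL2.1/DL2.2, and the one of dnj-14 was nearer to glit-1. The dnj-13 summit also lay in the window of F54D5.9.

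The weakest DnaJ gene in the reproducible list was dnj-14, at rank 636, and the strongest outside it was dnj-5, at rank 1235 with a signal of 50.2. The next dnj- genes were dnj-19, a class A DnaJ, at rank 1476, then dnj-28 at 2558, dnj-29, related to the translocation factor SEC63, at 2850, dnj-18 at 6044 and dnj-10, a mitochondrial DnaJ, at 8830. The dnj-19 region ranked 832 in replicate 2 and 2826 in replicate 1, so replicate 2 alone would have counted it, and its summit was 23 bases from the start of nhr-47. In the dnj-28 region only 42.9% of 31-base words occur once in the genome. Of the 29 genes 18 (62.1%) had a pooled candidate region, against 43.2% of all protein-coding genes.

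**Figure D2:**
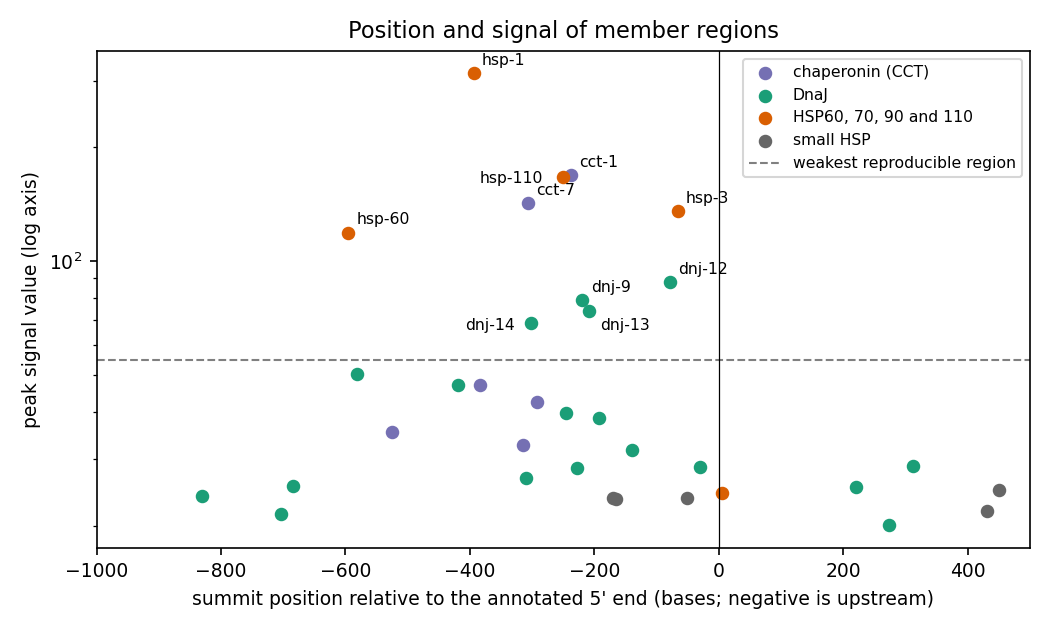
Summit position relative to the annotated 5′ end (bases, negative is upstream) and pooled peak signal value (log axis) for the strongest region of the 34 members, coloured by family; labels name the members with a reproducible region, above the dashed line. All 10 of these lie upstream of the 5′ end, from 66 to 596 bases, and the points downstream of it are all below the line.

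Small heat shock protein genes, which encode chaperones that hold unfolded proteins without ATP, carried no reproducible region in 13 cases, against 3.30% of all genes with one. So few genes are not set apart from all genes by this count. Pooled candidate regions were found at 5 of them (38.5%), a share near the 43.2% of all genes. They were hsp-12.2, hsp-16.2, hsp-16.41, hsp-12.6 and hsp-25, with signals from 21.8 to 24.9 and ranks from 14814 to 22155. The pooled candidate list as a whole had a median signal of 24.8. At hsp-12.2 and hsp-25, neither of them induced by heat, the summit lay inside the gene, 451 and 432 bases downstream of the 5′ end, and was matched in replicate 2 but not in replicate 1. The hsp-17 window held candidates in each replicate at ranks of 20060 and 23845 but none in the pooled list, and those of hsp-12.1 and hsp-43 held one in replicate 1 alone, at 20807 and 19481. No list held a candidate for hsp-12.3 in its window, although a reproducible region with a signal of 57.03 lay 944 bases downstream of its 5′ end, nearest to F38E11.9.

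The divergent pair hsp-16.2 and hsp-16.41 shared a single weak region between their starts. It had a signal of 23.6 and a pooled rank of 17571, it ranked 8530 in replicate 1, and no region of replicate 2 overlapped it. Heat shock pairs numbered 4 in the 300 bases around this summit, with pairs that share a unit counted separately. The 4 records of hsp-16.1 and hsp-16.48 form a duplicated array and had no candidate region in any list. In their windows only between 0% and 5.37% of 31-base words occur once in the genome, compared with 97.6% for hsp-16.2 and 95.9% for hsp-16.41, and the 300-base promoters of both hsp-16.48 records are identical. How reads with several placements were treated is not given in the sources used here, and their part in the absence of regions was not tested. The first sequence is part of the space between hsp-16.2 and hsp-16.41 at chrV:1805052-1805177, and the second is chrV:9087981-9088130, the 150 bases upstream of hsp-16.48 (WBGene00002019).
hsp-16.2: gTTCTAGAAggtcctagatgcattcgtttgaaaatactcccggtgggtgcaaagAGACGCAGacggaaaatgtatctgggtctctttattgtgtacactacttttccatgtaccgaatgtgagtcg
hsp-16.48: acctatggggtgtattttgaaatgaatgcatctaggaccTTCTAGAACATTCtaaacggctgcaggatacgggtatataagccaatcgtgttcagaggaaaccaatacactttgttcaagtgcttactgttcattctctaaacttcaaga

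Comparing the classes, a reproducible region was found at 5 of 16 constitutive members (31.2%) and 0 of 8 stress-induced ones, and a pooled candidate region at 12 of 16 (75%) and 2 of 8 (25%). Among all protein-coding genes the shares were 3.30% and 43.2%. Constitutive genes outside CCT and the small heat shock proteins were few, but 3 of these 4, hsp-1, hsp-3 and hsp-110, carried a reproducible region, and the fourth was hsp-90. Leaving out the repeated hsp-16.1 and hsp-16.48 records, the stress-induced count was 0 of 4 genes, of which hsp-16.2 and hsp-16.41 share 1 promoter. With so few genes, a count of 0 does not set the stress-induced class apart from the 3.30% of all genes. No test of the difference between classes was made. Moving hsp-6 and hsp-60 into the stress-induced class, an alternative chosen after the data were seen, gave 1 of 10, against 3.30% of all genes.

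**Figure D3:**
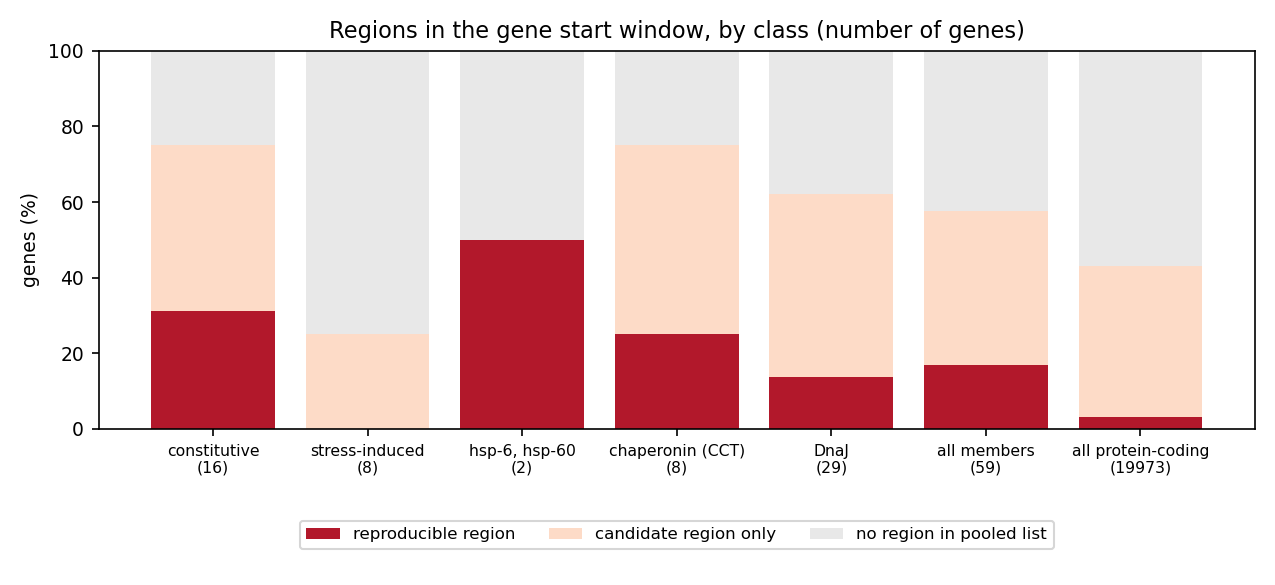
Percentage of genes with a reproducible region (red), with a pooled candidate region only (pink) and with neither (grey) in the gene start window, for classes and families of members (number of genes in brackets, families overlap with classes) and for all protein-coding genes. Constitutive members reach 31.2% and stress-induced members 0% for reproducible regions, against 3.30% of all genes. The stress-induced class is too small for its 0% to be set apart from that share.

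Heat-inducible HSP70 genes without an hsp- symbol were examined beside these classes. The divergent genes F44E5.4 and F44E5.5, near-identical copies of heat-induced HSP70, shared a reproducible region at chrII:11759271-11759626 with a signal of 91.2 and a rank of 313. It ranked 196 in replicate 1 and 693 in replicate 2, and its summit was 138 bases upstream of F44E5.4. Counting this pair among the stress-induced genes gave 2 of 10, both resting on that 1 region, against 3.30% of all genes. The 300 bases around that summit held 6 matches to each kind of heat shock pair, overlapping matches included. The central 150 bases, chrII:11759374-11759523, are shown for comparison with the hsp-16 promoters.
F44E5.4: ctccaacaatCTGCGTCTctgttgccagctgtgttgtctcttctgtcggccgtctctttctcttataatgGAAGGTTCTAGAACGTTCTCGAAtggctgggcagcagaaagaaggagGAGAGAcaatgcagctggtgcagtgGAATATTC

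Seen over ranks, 17 of 59 members had their strongest pooled region among the first 5000, compared with 10.5% of all genes, and 22 among the first 10000, compared with 18.3%. A pooled candidate region was present at 34 members (57.6%), against 43.2% of all genes. With each region given to its nearest gene only, 21 members had one, against 37.6% of all genes. No candidate region in any list was found for 16 of the 59, against 39.7% of all genes. Over genes with a candidate region the median of the best rank was 4635 for the 34 members and 12482 for all 8625 such genes. A candidate region was present at 39 members in replicate 1, against 42.0% of all genes, and at 35 in replicate 2, against 42.6%. Within each replicate, 9 members lay among the 1030 strongest regions of replicate 1, against 3.07% of all genes, and 9 among those of replicate 2, against 3.11%. Both replicates placed 7 there, against 2.14%.

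Summits of the 10 bound members were all upstream, at a median of 243.5 bases, and 8 were intergenic. Over all 659 genes with a reproducible region the median was 262 bases upstream, and 92.3% of summits were upstream. For 5 of the 10, namely hsp-1, hsp-3, dnj-9, dnj-12 and dnj-13, the member's own 5′ end was the nearest of any protein-coding gene, compared with 76.2% of all 659 genes. The median signal was 127 for the 10 members and 76.5 for all 659 genes. Every one of the 10 regions was of sequence that is unique in the genome by 31-base words. By chromosome, 3 lay on II, 2 each on III and X, and 1 each on I, IV and V.

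Members and words were chosen with earlier results of these data known, so heat shock pairs are not independent evidence. Such pairs were present within 150 bases of the summit at 7 of the 10 member regions. They were found at 20.8% of the 1020 reproducible regions of no member and at 33.9% of the other pooled regions. Of the 511 reproducible regions in a gene start window, as all member regions are, 24.1% held a pair. The 7 were hsp-1, hsp-60, hsp-110, cct-1, cct-7, dnj-12 and dnj-13, and the distance from the summit to the nearest pair ranged from 16 to 97 bases. An array of 3 alternating GAA and TTC units, each 2 bases apart, occurred at hsp-110, hsp-60 and dnj-12, and at 1.36% of all reproducible regions. Of 23 distinct candidate regions of members outside the reproducible list, 12 (52.2%) held a pair, hsp-90 and the hsp-16.2 pair among them. Promoters were taken from 250 bases upstream to 50 downstream of the 5′ end. There, a pair was present for 28 of all 59 members (47.5%), bound or not, and for 32.5% of all genes. By class, 8 of 8 stress-induced members and 10 of 16 constitutive members (62.5%) held one. The array of 3 units was present for 7 of 8 and 3 of 16 (hsp-1, hsp-90 and hsp-110), compared with 1.97% of all genes. The 8 stress-induced records are not 8 separate promoters. The promoters of both hsp-16.48 records are identical, those of hsp-16.1 share a run of 262 of 300 bases, and hsp-16.2 and hsp-16.41 share 1 promoter. The class was also drawn partly from genes known to be activated by HSF-1, so heat shock elements there are no independent finding. A match describes the letters and does not show that HSF-1 or NHR-11 binds there.

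**Figure D4:**
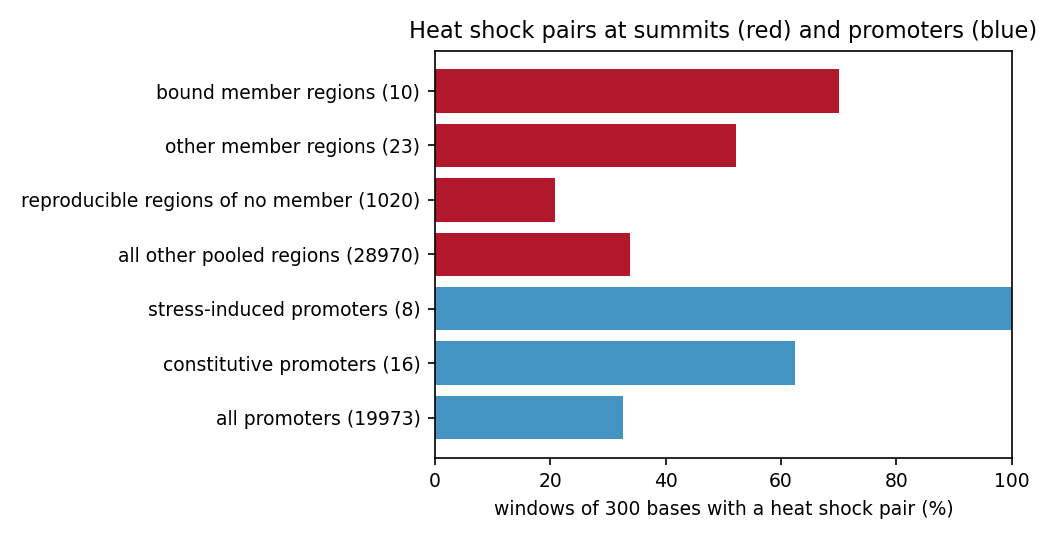
Percentage of 300-base windows holding a heat shock pair, around summits (red) and in promoters (blue), with the number of windows in brackets. Regions of bound members reach 70% and reproducible regions of no member 20.8%, while all stress-induced promoters hold a pair. Several of those promoters are copies of each other or are shared by 2 genes.

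Other words, sought because they mark many of the reproducible regions or nuclear receptor sites, differed in how their shares compared with all reproducible regions. GAGAGA was present at 4 of 10, hsp-1, hsp-3, dnj-13 and dnj-14, and at 52.4% of all reproducible regions. AGACGC was present at hsp-3 and dnj-14, compared with 24.6%, and ACGCAG at hsp-3 alone, compared with 28.8%. GCGCGC occurred at hsp-1, hsp-3 and hsp-60, compared with 11.3%. CACGTG was at none of the 10 and at 12% of all reproducible regions. The nuclear receptor half-site AGGTCA was found at dnj-14 alone, compared with 6.80%. The G and C content around the 10 summits was 41.2% ± 8.49 (SD over regions), and 41.8% ± 7.01 over all 1030.

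Partners and regulators of the chaperones were taken from a list of 23 co-chaperone and 13 regulator symbols, of which hsf-2 matched no gene record. Of the 23 genes listed as co-chaperones and related folding factors, 8 carried a reproducible region, against 3.30% of all genes, and the 8 rest on 7 distinct regions. The list includes F44E5.4 and F44E5.5, which are HSP70 genes sharing 1 region, and without them the count was 6 of 21. Those 6 were bag-1, a nucleotide exchange factor of HSP70, with a signal of 157, the prefoldin gene pfd-1 with 99.6, unc-23 (related to mammalian BAG2) with 88.9, the calreticulin gene crt-1 with 71.1, enpl-1 (the endoplasmic reticulum HSP90) with 59.8 and ahsa-1, an activator of HSP90, with 57.9. Replicate 2 ranked enpl-1 at 2915 and ahsa-1 at 1807. The pfd-1 and ahsa-1 regions were nearer to the neighbours F01G4.6 and C01G10.7, and the enpl-1 region also lay in the window of imp-2. The other prefoldin genes and sti-1, which links HSP70 to HSP90, were outside the reproducible list, sti-1 at rank 1295.

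Of 12 regulators, 1 carried a reproducible region, against 3.30% of all genes, and 6 had a pooled candidate region, against 43.2%. With so few genes these counts do not set the regulators apart. The one was xbp-1, the transcription factor of the unfolded protein response in the endoplasmic reticulum, with a signal of 96.0, a summit 8 bases upstream of its 5′ end and ranks of 386 and 235 in replicates 1 and 2. No pooled candidate region was found for hsf-1, the heat shock factor itself, nor for its binding partners hsb-1, ddl-1 and ddl-2. The mitochondrial stress factor atfs-1 had one at rank 8782. The kinase genes pek-1 and ire-1 of the unfolded protein response had ones at 3578 and 26982.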

How the data were processed

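ChIP-seq of eGFP-nhr-11 was made in 2 replicates, with fragments of 150 to 350 bp per the labels. The deposited files were region lists whose peak signal value was assigned by the authors' caller from sample and control alignments, per the accompanying file descriptions. The caller, aligner and their versions are not given in the sources used here, nor is the scale of the signal. The ce10 lists were not used here, since no ce10 annotation was at hand, and the control library was not analysed here.

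Regions were ranked by signal within each list and joined by summit to gene 5′ ends of Ensembl release 115 (WBcel235, the ce11 build) and sequence of the RefSeq copy of that build, using Python 3.11.15, numpy 2.4.6 and pandas 2.3.3. A replicate value is the strongest region that overlaps the pooled region by at least 1 base. Assignment was tested on regions planted at known distances. Coordinates are 1-based. Words were counted in 300 bases around summits, on both strands, and overlapping matches were each counted. Uniqueness is the share of 31-base words found once in the genome.

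Members, classes, words and partner lists were chosen with earlier results of these data known. Named were all hsp- and cct- members, dnj- members with a reproducible region and the 6 next strongest, and partners with one. Other partners, the regions of hsp-90, cct-5 and hsp-12.3 outside their windows, and which sequences to print were chosen after their values were seen. With 1 group no test over samples exists, and none was made over genes. Genes are not replicates.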

Additional observations from a re-analysis of the deposited data

How the results depend on the processing

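Counts were recomputed under 62 alternatives, and 55 stayed within 1.5 times the value given above. Stress-induced counts that stayed at 0, for which a ratio has no meaning, are among the 55. The alternatives overlap in members and regions, so they are not independent checks. With each region assigned to its nearest gene only, the count of members with a reproducible region was 5 in place of 10. That of constitutive members was 2 in place of 5, and that of chaperonin genes 0 in place of 2. Of all protein-coding genes, 2.51% then carried one. Members with a candidate region were 21 of 59 in place of 34, against 37.6% of all genes, so their share was no longer above that of all genes. The 5 members that lost a reproducible region each have a closer divergent neighbour, and position alone does not assign such a region to either gene. With only regions among the strongest of both replicates, DnaJ genes numbered 1 in place of 4, against 2.14% of all genes. Of the alternatives chosen after seeing the data, counting hsp-6 and hsp-60 as stress-induced gave 1 and counting F44E5.4 and F44E5.5 gave 2, in place of 0. For all genes the share was 3.30% in both. Without replicate 1 or without replicate 2, 9 members carried a region and constitutive members stayed at 5, and candidate regions ranged from 35 to 39. With windows of 2000 bases to each side 12 members were counted, against 5.22% of all genes, hsp-90 and hsp-12.3 being added. The stress-induced count was 0 in each of the other alternatives run on it. No paired analysis was possible because there is only 1 group. The pooled candidate list is labelled as holding background beside peaks, and read depth is unknown, so weak candidate regions cannot be told from background.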
